A study of Mus musculus with 3 samples.

Results

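The genes described here are 10 genes of the dermal elastic fibre, chosen by symbol among the 32285 genes counted in spatial transcriptomes of healing mouse skin. They are *Eln*, *Fbn1*, *Fbn2*, *Fbln1*, *Fbln2*, *Fbln5*, *Mfap2*, *Mfap4*, *Mfap5* and *Emilin1*, and all 10 were detected in every section. The tissue was skin from full-thickness excisional wounds on the backs of adult male C57BL/6J mice, a wild-type inbred strain. Fresh frozen wound tissue from Day 3, Day 7 and Day 14 after injury was sectioned and analysed on the Visium platform, in which a section lies on an array of barcoded spots that capture polyadenylated RNA and each captured molecule is counted once by its unique molecular identifier (UMI). Each day was represented by 1 section and no section of unwounded skin was analysed here. The question was how the genes that build the elastic fibre differ in level between the days, in absolute terms and relative to fibrillar collagen, and where in each section their RNA lies.

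Elastic fibres give skin its recoil. They consist of a core of cross-linked elastin laid down on a scaffold of microfibrils. Fibrillins form the backbone of the microfibril, the microfibril-associated glycoproteins bind to it, and fibulins and emilins link the microfibril, elastin and the cell surface. Lysyl oxidases then cross-link the elastin. Fibroblasts make most of these proteins in the dermis, and mature elastic fibres are known to be sparse and late to return in scars, whereas collagen is laid down early in granulation tissue.

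The 3 sections were not alike in depth or in the tissue they held. The Day 3, Day 7 and Day 14 sections had 664, 549 and 697 spots marked as lying under tissue, with 1772259, 4442962 and 4611723 UMIs and a median of 1513, 6687 and 4827 UMIs per spot. The 10 genes together gave 2925, 17480 and 8643 UMIs, which is 1650, 3934 and 1874 counts per 1000000 UMIs (CPM). With 1 section per day there is no p-value between days. Every interval given is a 95% interval that covers counting error only and holds no variation between animals or sections. Marker lists of 10 or 12 genes showed that the sections also held tissue other than dermis. A list of 10 skeletal muscle genes summed to 39581, 52126 and 59692 CPM, a hair and sebaceous gland list to 345, 64.4 and 5401 CPM, and a granulation tissue list that includes *Postn* and *Tnc* to 1480, 7767 and 1523 CPM. A resting fibroblast list that includes *Dcn* and *Pdgfra* summed to 6262, 4969 and 3907 CPM. No gene of the muscle, granulation or fibroblast lists was at 0 in any section. Of the hair and sebaceous gland list, 6 genes were at 0 on Day 3, 1 on Day 7 and 0 on Day 14. Dermal spots, defined as those with less than 5% of their UMIs from the muscle list and less than 5% from the epidermis and hair lists, numbered 363, 161 and 224. This class requires no dermal marker, and spots at or above 5% muscle list UMIs numbered 293, 388 and 462. On Day 7 and Day 14 the muscle list exceeded 5% of the UMIs of the section as a whole. The granulation-richest region of Day 14, described below, itself held 59630 CPM of it. In a spot, fewer cells of a type and less RNA per cell cannot be told apart. The 3 slides share all 4992 spot barcodes by design, so a shared barcode does not mark a shared cell.

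The members lie on different chromosomes except for 2 pairs. In the GENCODE M21 annotation of mm10, *Eln* spans chr5:134702593-134747323 and *Emilin1* chr5:30913402-30921277, while *Fbln2* spans chr6:91212455-91272540 and *Mfap5* chr6:122505845-122529290. *Fbn1* lies at chr2:125300594-125507993, *Mfap2* at chr4:141010418-141015984, *Mfap4* at chr11:61485431-61488900, *Fbln5* at chr12:101746565-101819055 and *Fbln1* at chr15:85205949-85286535. All are protein coding. A promoter window was available from the RefSeq table of GRCm38.p6 for 6 of the 10 members. It is shown for the 3 members whose window lies upstream of the annotated gene. In CPM over all marked spots, *Fbln1* was highest on Day 3 and *Mfap2* on Day 7. *Fbln5* was also highest on Day 7 and differed least between the days among the fibulins. The windows lie at chr15:85205699-85205948 on the plus strand for *Fbln1*, at chr12:101819120-101819369 on the minus strand for *Fbln5* and at chr4:141010174-141010417 on the plus strand for *Mfap2*, each written 5′ to 3′ in the direction of transcription. Capitals mark a match to GGGCGG, the core of the GC box, read on either strand.
Fbln1: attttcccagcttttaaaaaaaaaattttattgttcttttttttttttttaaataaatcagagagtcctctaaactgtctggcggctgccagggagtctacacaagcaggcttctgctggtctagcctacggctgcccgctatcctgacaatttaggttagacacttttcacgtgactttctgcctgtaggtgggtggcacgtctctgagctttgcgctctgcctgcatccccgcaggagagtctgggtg
Fbln5: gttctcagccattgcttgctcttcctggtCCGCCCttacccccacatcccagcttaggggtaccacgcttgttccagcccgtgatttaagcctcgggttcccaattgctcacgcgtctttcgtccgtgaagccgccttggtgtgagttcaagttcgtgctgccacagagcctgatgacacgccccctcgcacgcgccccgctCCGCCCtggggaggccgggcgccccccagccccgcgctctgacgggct
Mfap2: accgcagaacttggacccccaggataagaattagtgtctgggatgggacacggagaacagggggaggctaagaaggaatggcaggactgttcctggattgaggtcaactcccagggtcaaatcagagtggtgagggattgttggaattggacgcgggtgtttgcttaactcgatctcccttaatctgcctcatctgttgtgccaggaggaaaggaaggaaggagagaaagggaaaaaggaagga
*Fbln5* held 2 matches to GGGCGG and the windows of *Fbln1* and *Mfap2* held 0, while 32.7% of 32851 promoters in the table held at least 1. None of the 3 windows held TATAAA, which 12.4% of the promoters held on either strand. These matches describe letters in the windows and were not tied to the counts. The G and C content was 46.4% for *Fbln1*, 65.2% for *Fbln5* and 51.2% for *Mfap2*.

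*Eln*, which encodes tropoelastin, the soluble precursor of the elastic core, stood at close CPM values on Day 7 and Day 14, both above Day 3. Its 405, 1662 and 1638 UMIs on Days 3, 7 and 14 correspond to 229 CPM (interval 207 to 252), 374 CPM (356 to 393) and 355 CPM (338 to 373). The Day 3 interval lies below the other two, and the intervals of Day 7 and Day 14 overlap. For Day 7 over Day 3 the log2 ratio was 0.71 (0.55 to 0.87), and Day 14 over Day 7 gave -0.07 (-0.17 to 0.02). *Eln* was the only member whose interval for Day 14 over Day 7 included 0.

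The fibrillins, the backbone of the microfibril, were highest on Day 7. *Fbn1*, the main fibrillin of adult tissue, stood at 341 CPM (315 to 370), 702 CPM (677 to 727) and 292 CPM (277 to 308) in the order of the days. That is 2.06-fold higher on Day 7 than on Day 3, and Day 14 over Day 3 gave a log2 value of -0.22 (-0.36 to -0.08). *Fbn2*, a fibrillin made mostly in development and regrowth, was counted with 38, 488 and 181 UMIs, which is 21.4 CPM (15.2 to 29.4), 110 CPM (100 to 120) and 39.2 CPM (33.7 to 45.4). The Day 7 level was 5.12-fold the Day 3 level, the largest ratio among the 10 genes for those days, and the 3 intervals do not overlap.

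The genes for the small microfibril-bound proteins split over time. *Mfap2* and *Mfap5* encode the microfibril-associated glycoproteins MAGP-1 and MAGP-2, and *Mfap4* encodes a fibrinogen-related protein that binds tropoelastin and fibrillin. *Mfap2* stood at 107 CPM (92.0 to 123), 346 CPM (329 to 364) and 133 CPM (123 to 144) on Days 3, 7 and 14. *Mfap5* stood at 71.7 CPM (59.7 to 85.3), 267 CPM (252 to 282) and 83.7 CPM (75.6 to 92.5). Both were thus more than 3-fold higher on Day 7 than on Day 3, at 3.25-fold and 3.72-fold, and close to their Day 3 levels on Day 14. *Mfap4* stood at 306 CPM (281 to 333), 698 CPM (673 to 723) and 554 CPM (533 to 576), so its Day 14 level lay nearer to Day 7, with a log2 ratio of -0.33 (-0.41 to -0.26) to Day 7 and 0.86 (0.72 to 0.99) to Day 3.

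The fibulins followed 3 different courses. *Fbln2*, which binds fibrillin, elastin and basement membrane proteins, was at 282 CPM (258 to 308), 996 CPM (967 to 1026) and 207 CPM (194 to 221). Its Day 7 level was 3.53-fold that of Day 3 and 4.81-fold that of Day 14. *Fbln5*, which is needed for elastic fibre assembly in skin and guides tropoelastin onto microfibrils, was at 50.8 CPM (40.8 to 62.4), 83.3 CPM (75.0 to 92.2) and 59.4 CPM (52.6 to 66.9), with intervals of Day 3 and Day 14 that overlap. *Fbln1*, a fibulin found in the elastic core and in other matrix, was highest on Day 3 and lower at each later day, at 196 CPM (176 to 218), 170 CPM (158 to 182) and 110 CPM (100 to 120). The Day 3 and Day 7 intervals of *Fbln1* overlap, and its log2 ratio for Day 14 over Day 7 was -0.63 (-0.80 to -0.47). For Day 7 over Day 3 its log2 ratio ran from -0.54 to 0.26 under other ways of processing, so the order of those days was not settled.

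*Emilin1*, whose product sits between elastin and the microfibril, was at 45.7 CPM (36.3 to 56.8), 189 CPM (176 to 202) and 39.9 CPM (34.3 to 46.1) on Days 3, 7 and 14. The Day 7 level was 4.13-fold that of Day 3 and 4.73-fold that of Day 14. With *Fbln2* it had the lowest Day 14 level relative to Day 7 among the 10 genes.

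**Figure D1:**
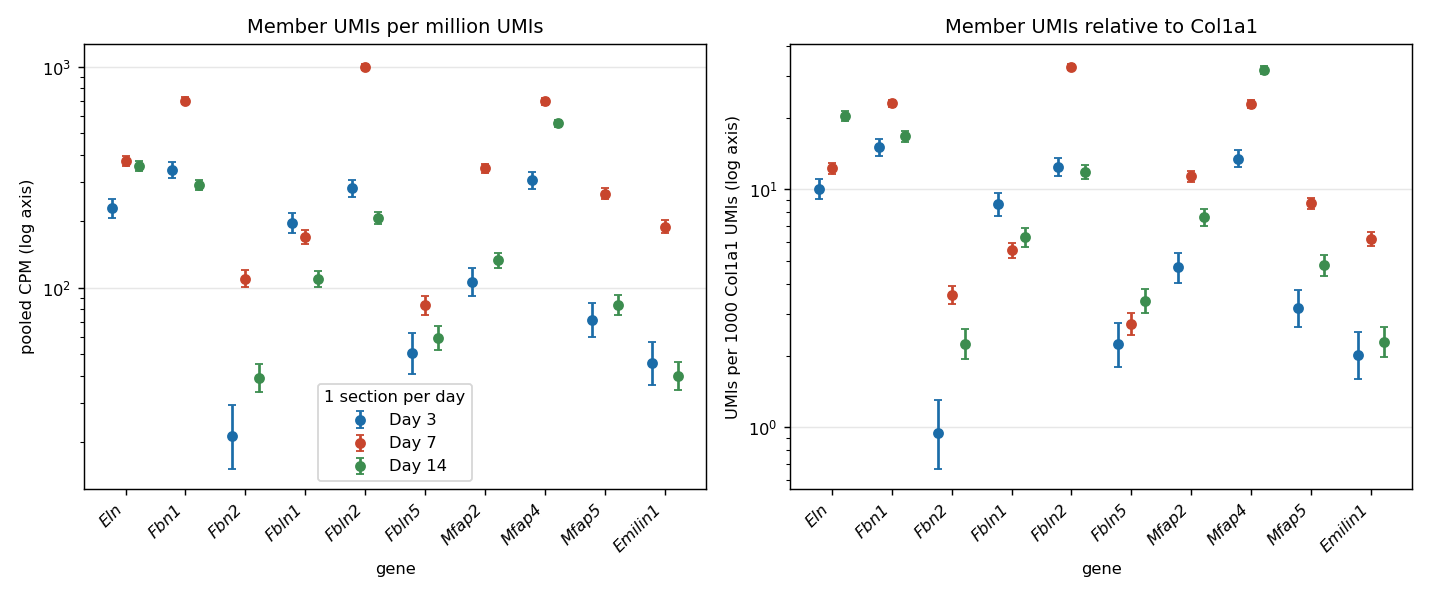
Level of each of the 10 genes in the marked spots of the Day 3, Day 7 and Day 14 sections (1 section per day), as CPM and as UMIs per 1000 Col1a1 UMIs, with 95% counting intervals. On the CPM scale 9 genes are highest on Day 7 and Fbln1 is highest on Day 3, with overlapping intervals for Day 3 and Day 7. Per 1000 Col1a1 UMIs Eln (20.3), Mfap4 (31.7) and Fbln5 (3.40) are highest on Day 14, where the Fbln5 interval overlaps that of Day 7.

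Counted together, 7 of the 10 members were at least 2-fold higher on Day 7 than on Day 3 in CPM, against 8.04% of the 10541 genes with at least 50 UMIs over both sections. None was at least 2-fold lower, against 6.49% of genes. The 3 members that did not reach 2-fold were *Eln*, *Fbln1* and *Fbln5*. The median log2 ratio of the members was 1.44 and that of all genes was 0.04. For Day 14 over Day 7, 6 members were at least 2-fold lower, against 7.34% of genes, and none was at least 2-fold higher, against 10.9%. These 6 were *Fbn1*, *Fbn2*, *Fbln2*, *Mfap2*, *Mfap5* and *Emilin1*, each of which was also among the 7 that were higher on Day 7 than on Day 3. The seventh, *Mfap4*, was not 2-fold lower on Day 14. Both ratios use the Day 7 section, so they are not independent of each other. Between Day 14 and Day 3 no member differed by 2-fold in CPM in either direction, where 14.4% of genes were higher and 6.83% lower. The granulation list and the depth per spot were also highest in the Day 7 section, and their part in these ratios was not tested. In the dermal spots alone the counts were again 7 members higher on Day 7 than on Day 3 and 6 lower on Day 14 than on Day 7.

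Relative to *Col1a1*, the main fibrillar collagen gene of dermis, the order of the days was different for several members. *Col1a1* itself stood at 22692 CPM, 30560 CPM and 17471 CPM on Days 3, 7 and 14. Per 1000 *Col1a1* UMIs, *Eln* gave 10.1 UMIs (9.11 to 11.1), 12.2 (11.7 to 12.8) and 20.3 (19.3 to 21.3) on the 3 days. *Mfap4* gave 13.5 (12.4 to 14.7), 22.8 (22.0 to 23.7) and 31.7 (30.5 to 33.0). For these 2 genes the intervals of the 3 days do not overlap and the highest value is on Day 14. *Fbln5* was ordered in the same way, at 2.24, 2.73 and 3.40 UMIs per 1000 *Col1a1* UMIs, with overlapping intervals for Day 3 (1.80 to 2.75) and Day 7 (2.45 to 3.02). The Day 14 interval (3.01 to 3.83) also overlapped that of Day 7, with a log2 ratio of 0.32 (0.09 to 0.55) for Day 14 over Day 7.

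The other members were not highest on Day 14 by this measure. *Fbln2* gave 12.4, 32.6 and 11.9 UMIs per 1000 *Col1a1* UMIs and *Fbn1* gave 15.04, 23.0 and 16.7. *Mfap2* gave 4.70, 11.3 and 7.63, and *Mfap5* gave 3.16, 8.73 and 4.79. *Emilin1* gave 2.01, 6.17 and 2.28 and *Fbn2* gave 0.945, 3.59 and 2.25, so that these 6 genes all had their highest value on Day 7. *Fbln1* had its highest on Day 3, with 8.65, 5.56 and 6.28.

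In counts, 5 members were at least 2-fold higher per *Col1a1* UMI on Day 7 than on Day 3 (*Fbn2*, *Fbln2*, *Mfap2*, *Mfap5* and *Emilin1*), against 3.58% of genes, and 0 were at least 2-fold lower, against 16.1%. For Day 14 over Day 7, 2 members were at least 2-fold lower (*Fbln2* and *Emilin1*), against 1.82% of genes, and 0 were at least 2-fold higher, against 45.7%. For Day 14 over Day 3, 3 members were at least 2-fold higher (*Eln*, *Fbn2* and *Mfap4*, with log2 ratios of 1.01, 1.25 and 1.24), against 26.6% of genes, and 0 were lower, against 4.02%. The share of all genes is large here since *Col1a1* was itself lower on Day 14, and the median log2 ratio per *Col1a1* UMI over all genes was 0.94 against Day 7 and 0.56 against Day 3. The members' medians for the same ratios were -0.51 and 0.60. The ratio of *Eln* for Day 14 over Day 7, 0.73 (0.63 to 0.83), was therefore below that of the median gene, so that *Eln* was higher relative to *Col1a1* but not relative to the other genes of the section. These counts depend on the collagen chosen: with *Col3a1* in place of *Col1a1*, 1 member was at least 2-fold higher and 1 was lower on Day 7 than on Day 3.

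Genes whose products assemble, cross-link or cut the elastic fibre were read from a list of 26. For Day 7 over Day 3, 20 of them had at least 50 UMIs over both sections, 2 were at least 2-fold higher (8.04% of genes) and 3 at least 2-fold lower (6.49%) in CPM, with a median log2 ratio of -0.07. The 2 higher genes encode the cross-linking enzymes lysyl oxidase-like 1 and 2. *Loxl1*, which acts on elastin, stood at 282, 665 and 190 CPM on Days 3, 7 and 14, and *Loxl2* at 138, 317 and 124 CPM. *Lox*, the founding member of that enzyme family, stood at 314, 283 and 134 CPM. The 3 lower genes were *Efemp1* (fibulin-3, 137, 37.6 and 37.3 CPM), *Emilin2* (102, 36.2 and 22.1 CPM) and the latent TGF-β binding protein gene *Ltbp2* (36.1, 16.2 and 15.2 CPM). *Efemp2*, which encodes fibulin-4, needed for elastin cross-linking, stood at 104, 162 and 25.8 CPM, a 6.26-fold difference between Day 7 and Day 14.

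On Day 14 the genes of this assembly list, which also holds proteases, were mostly lower than on Day 7. Of 21 counted genes, 9 were at least 2-fold lower (7.34% of genes) and 0 at least 2-fold higher (10.9%) in CPM, with a median log2 ratio of -0.71 against 0.13 for all genes. The 9 were *Lox*, *Loxl1*, *Loxl2*, *Loxl3*, *Efemp2*, the matrix metalloproteinase genes *Mmp2* and *Mmp12* and the cathepsin genes *Ctss* and *Ctsk*. Against Day 3, 9 of 20 counted genes were at least 2-fold lower on Day 14 (6.83% of genes) and 0 were higher (14.4%), with *Ltbp2*, *Efemp1*, *Emilin2* and *Mmp9* in place of *Loxl1*, *Loxl2*, *Mmp2* and *Mmp12*. Per *Col1a1* UMI the list read otherwise. Day 7 over Day 3 then gave 0 genes at least 2-fold higher (3.58% of genes) and 7 lower (16.1%), Day 14 over Day 7 gave 3 higher (45.7%) and 2 lower (1.82%), and Day 14 over Day 3 gave 1 higher (26.6%) and 5 lower (4.02%). The macrophage list, whose cells express *Mmp12* and *Ctss*, summed to 4166, 2625 and 1066 CPM, and its part in the protease values was not tested.

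To place the genes in the tissue, each section was divided into 5 regions by clustering its spots on other genes, with the members, the assembly list, *Col1a1* and the granulation and fibroblast lists left out. The region richest in granulation list UMIs, called granulation-richest, was set against the other region of at least 50 spots that was richest in *Col1a1*, a comparison chosen after the data were seen. The comparison planned with the region richest in the resting fibroblast list is given second, since that region was led by muscle genes on Day 14 and held muscle genes among its leading genes on Day 7. The Day 3 granulation-richest region had 101 spots and 456918 UMIs and lay on average 5.44 spot pitches, the spacing between neighbouring spots, below the top of the section, and the *Col1a1*-richest other region had 119 spots and held sebaceous gland genes among its leading genes. On Day 7 these regions had 104 and 269 spots. The *Col1a1*-richest other region of Day 7 held 59598 CPM of the muscle list, against 26047 CPM in the granulation-richest region, and the sebaceous gland gene *Far2* was among its leading genes, and the part of these tissues in the Day 7 result was not tested. On Day 14 the regions had 249 and 225 spots.

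On Day 3 the members were split between these regions. In the granulation-richest region *Mfap4* stood at 43.8 CPM and *Eln* at 107 CPM, against 616 and 352 CPM in the *Col1a1*-richest other region. That is 14.1-fold lower for *Mfap4* (log2 ratio -3.82, interval -4.54 to -3.17) and 3.28-fold lower for *Eln* (-1.71, -2.18 to -1.27). *Fbln1* was also lower there (101 against 309 CPM), while *Fbn1* (619 against 237 CPM), *Fbln2* (525 against 213 CPM), *Mfap5* (103 against 37.8 CPM) and *Emilin1* (81.0 against 39.1 CPM) were at least 2-fold higher. *Mfap2* (87.5 against 163 CPM) and *Fbln5* (37.2 against 59.3 CPM) were lower by less than 2-fold, and *Fbln5* had an interval that included 0. Of the 9 members with at least 50 UMIs over both regions, 4 were thus at least 2-fold higher, against 9.57% of genes, and 3 at least 2-fold lower, against 12.2%. *Col1a1* was itself lower in the granulation-richest region (16136 against 36613 CPM). Per *Col1a1* UMI the log2 ratio of *Mfap4* was -2.63 (-3.28 to -1.99) and that of *Eln* -0.53 (-0.97 to -0.09), while that of *Fbn1* was 2.57 and that of *Mfap5* 2.63.

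On Day 7 the split was smaller and *Eln* stood alone. *Eln* was at 233 CPM in the granulation-richest region and 500 CPM in the *Col1a1*-richest other region, a log2 ratio of -1.10 (-1.27 to -0.94), and it was the 1 member at least 2-fold lower, against 6.51% of genes. The other 9 were higher there in CPM by less than 2-fold, with 0 members past 2-fold against 1.8% of genes. Among them *Fbln2* stood at 1426 against 780 CPM, *Mfap5* at 392 against 200 CPM, *Mfap2* at 474 against 284 CPM and *Mfap4* at 786 against 697 CPM. Per *Col1a1* UMI, *Eln* had a log2 ratio of -1.43 (-1.59 to -1.26) and *Mfap4* one of -0.15 (-0.26 to -0.05).

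On Day 14 all 10 members were higher in the granulation-richest region, with intervals above 0. *Mfap4* stood at 929 against 497 CPM (log2 ratio 0.90, interval 0.78 to 1.02), *Eln* at 470 against 360 CPM (0.38, 0.23 to 0.54) and *Fbn1* at 468 against 259 CPM. *Mfap5*, at 132 against 63.1 CPM, was the 1 member at least 2-fold higher, against 1.75% of genes, and 0 were at least 2-fold lower, against 2.33%. *Col1a1* was higher there too (26767 against 16268 CPM). Per *Col1a1* UMI, *Eln* was lower in the granulation-richest region (log2 ratio -0.33, interval -0.49 to -0.18) and so was *Fbln1* (-0.30, -0.57 to -0.02), *Mfap4* (0.19, 0.07 to 0.31) and *Mfap5* (0.35, 0.03 to 0.67) were higher, and the other 6 had intervals that included 0. The *Col1a1*-richest other region of Day 14 held 7658 CPM of the hair and sebaceous gland list, against 3696 CPM in the granulation-richest region, and the part of these structures in the result was not tested.

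Against the fibroblast-richest region, 1 of 6 counted members was at least 2-fold higher in the granulation-richest region on Day 3 (13.4% of genes) and 1 at least 2-fold lower (7.21%). *Fbn1*, with a log2 ratio of 0.24 (-0.10 to 0.59), and *Mfap5*, with -0.03 (-0.83 to 0.82), thus did not differ beyond counting error from the fibroblast-richest region of Day 3, though both were over 2-fold higher against the *Col1a1*-richest other region. On Day 7, 3 were higher (11.6%) and 0 lower (6.51%), and on Day 14, 9 were higher (40.2%) and 0 lower (5.99%). *Eln* stood at 293 CPM in the fibroblast-richest region on Day 3, 316 on Day 7 and 147 on Day 14, against 107, 233 and 470 CPM in the granulation-richest region. The muscle list reached 162133 CPM in the fibroblast-richest region of Day 14, against 59630 CPM in the granulation-richest region.

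**Figure D2:**
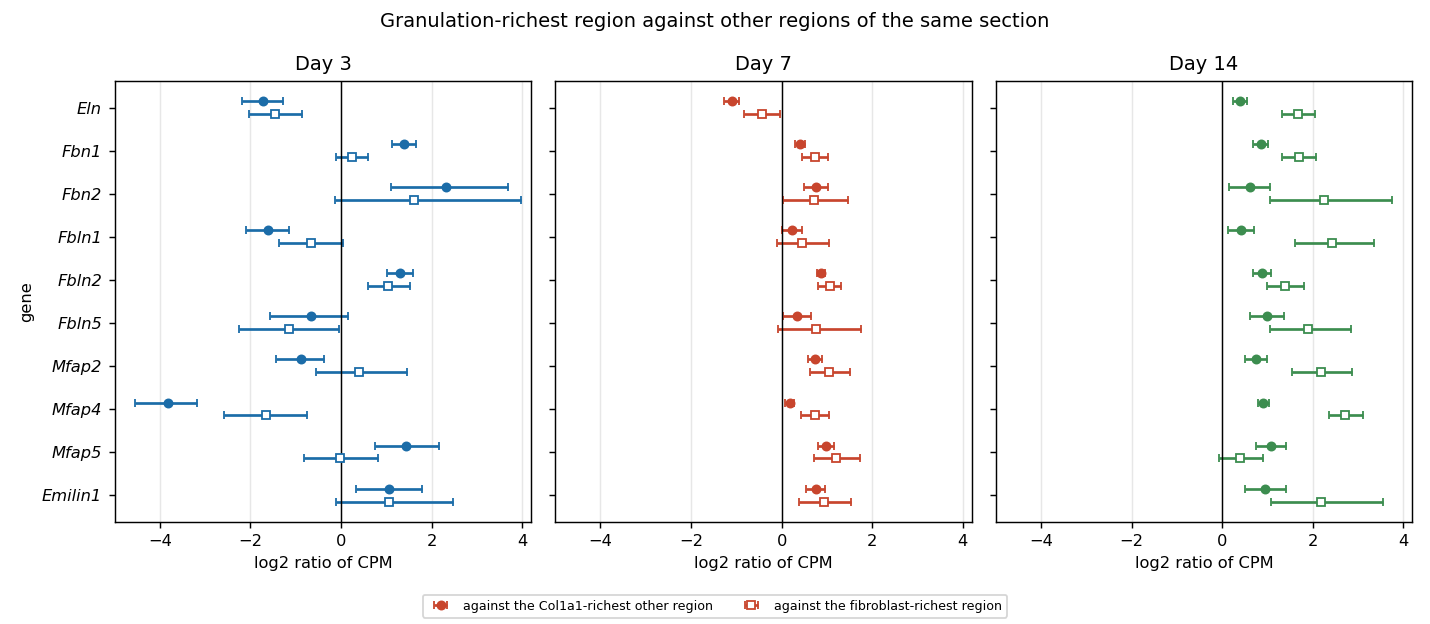
Log2 CPM ratio of each member of the granulation-richest region over the Col1a1-richest other region (filled circles) and over the fibroblast-richest region (open squares) of each section, with 95% counting intervals and a line at 0. Among the circles, on Day 3 Mfap4 (-3.82), Eln (-1.71), Fbln1 (-1.62) and Mfap2 (-0.89) lie below 0, as does Fbln5 with an interval that includes 0. Fbn1, Fbln2, Mfap5, Emilin1 and Fbn2 lie above it, Fbn2 with 23 and 8 UMIs. On Day 7 Eln alone is below 0 (-1.10), and on Day 14 all 10 are above 0.

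**Figure D3:**
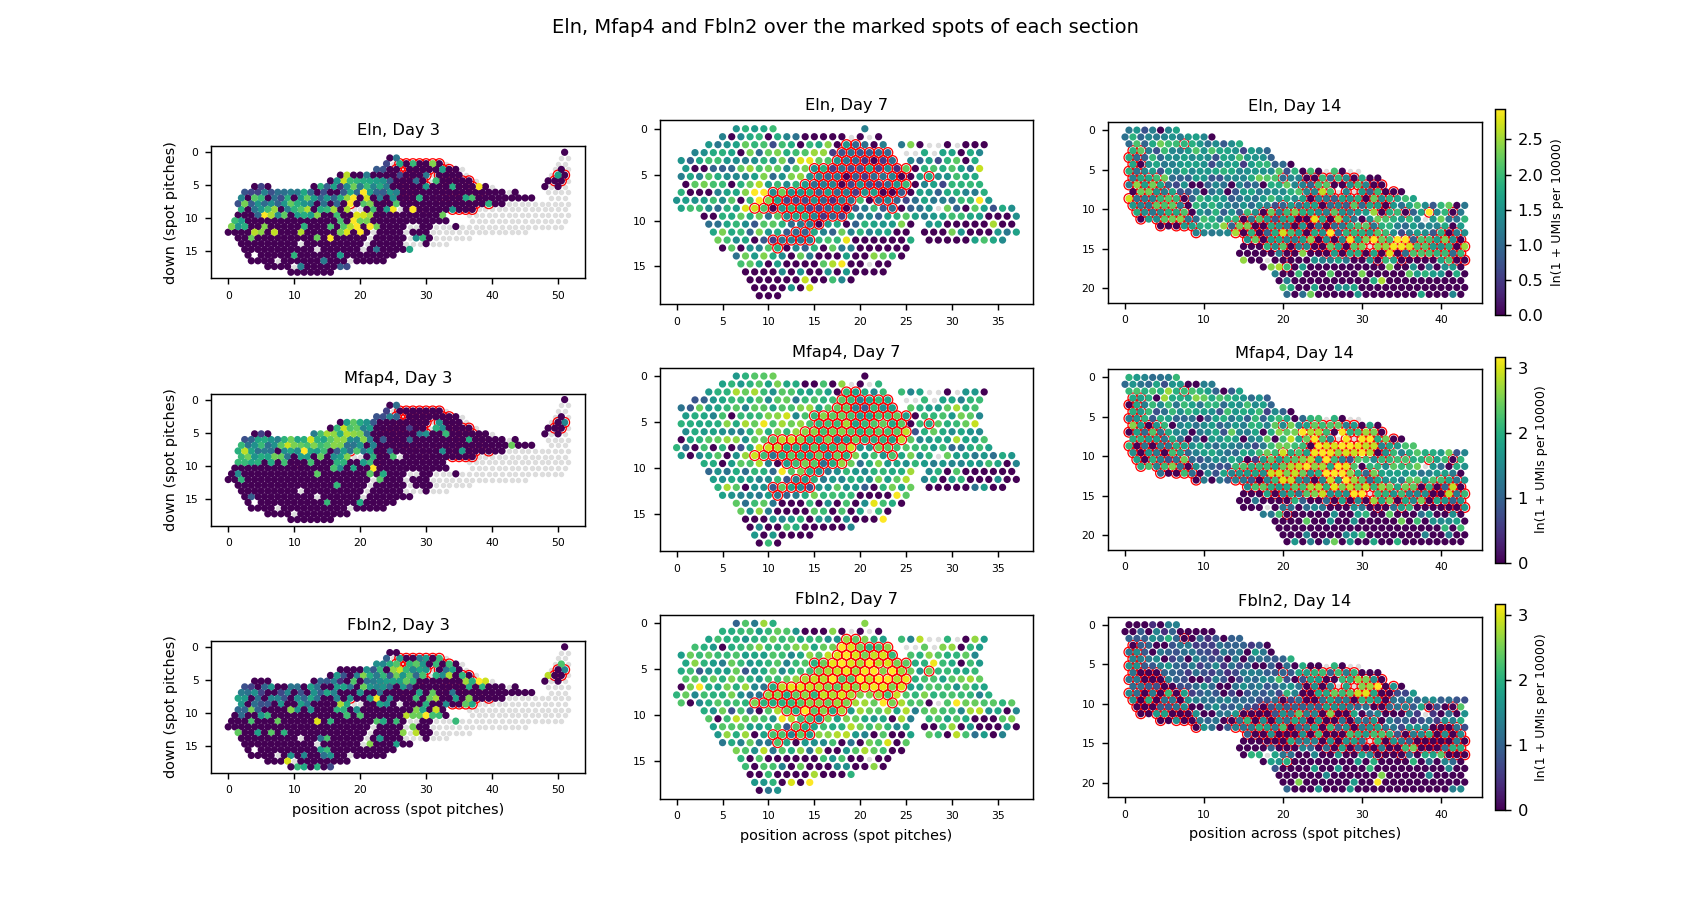
Level of Eln, Mfap4 and Fbln2 at each marked spot of the 3 sections as colour, on the scale ln(1 + UMIs per 10000 UMIs), at the spots' positions in spot pitches, with red rings on the granulation-richest region and spots under 500 UMIs in grey. On Day 3 the ringed spots are low in Mfap4 (43.8 CPM) and Eln (107 CPM), and on Day 14 the ringed spots hold 929 CPM of Mfap4, with the brightest spots in the middle of the section.

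The distance of each dermal spot from the centre of granulation tissue gave the same genes a second reading. The centre was the mean position of the 5% of marked spots with the highest granulation list share after averaging over adjacent spots, and distance was read in spot pitches. On Day 3, bands of 0 to 5, 5 to 10, 10 to 15 and over 15 pitches held 54, 80, 81 and 148 dermal spots. *Mfap4* stood at 75.6, 28.1, 145 and 644 CPM in these bands and *Eln* at 86.5, 45.7, 261 and 372 CPM, so both were lowest in the bands within 10 pitches. *Fbn1* ran the opposite way, at 886, 580, 402 and 267 CPM, and *Fbn2* too, at 75.6, 45.7, 32.2 and 8.26 CPM, the last from 6 UMIs. Between the nearest and the farthest band the interval of the log2 ratio was above 0 for 2 members (*Fbn1* at 1.73 and *Fbn2* at 3.20) and below 0 for 4 (*Mfap4* at -3.09, *Eln* at -2.10, *Fbln1* at -1.33 and *Mfap2* at -1.11). Among the 7 members with at least 50 UMIs over both bands these counts were 1 and 4, against 15.3% and 16.5% of genes. The nearest band rested on 92533 UMIs, of which 8 were *Eln*.

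On Day 7, *Fbln2* was highest at the centre, with 1589, 1136 and 671 CPM in the bands of 0 to 5, 5 to 10 and 10 to 15 pitches, and *Emilin1* was as well, with 284, 201 and 105 CPM. *Eln* was lowest at the centre, with 205, 329 and 446 CPM, and *Fbn1*, at 742, 858 and 1088 CPM, was now higher away from it. *Mfap4* (757, 820 and 747 CPM) and *Mfap2* (450, 473 and 446 CPM) hardly varied. Of the 10 members 3 had intervals above 0 (10.4% of genes) and 3 below 0 (10.6%) between the nearest band and that of 10 to 15 pitches, which held 69 and 28 dermal spots. The band beyond 15 pitches held 4 dermal spots and was not used for a ratio. Over all marked spots with these same bands, 6 members had intervals above 0 and 1 below, and *Fbn1* (log2 ratio 0.09, -0.05 to 0.23) had an interval that included 0.

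On Day 14, 9 of the 10 members were higher in the nearest than in the farthest band, with intervals above 0 (9.64% of genes), and 0 were lower (16%). *Mfap4* stood at 1465, 756, 367 and 417 CPM in the 4 bands, *Fbln5* at 172, 87.9, 43.7 and 32.5 CPM and *Fbln2* at 579, 330, 163 and 147 CPM. *Eln* was at 423, 365, 301 and 312 CPM, the smallest log2 ratio of the 9 (0.44, interval 0.15 to 0.72), and *Fbln1* had an interval that included 0 (0.30, -0.25 to 0.81). *Col1a1* also had its highest level in the nearest band, at 34190, 21369, 11534 and 15184 CPM. Per 1000 *Col1a1* UMIs, *Mfap4* gave 42.9, 35.4, 31.8 and 27.4 UMIs, and *Eln* gave 12.4, 17.1, 26.1 and 20.5, so that *Eln* was lowest at the centre relative to collagen while *Mfap4* was highest there.

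**Figure D4:**
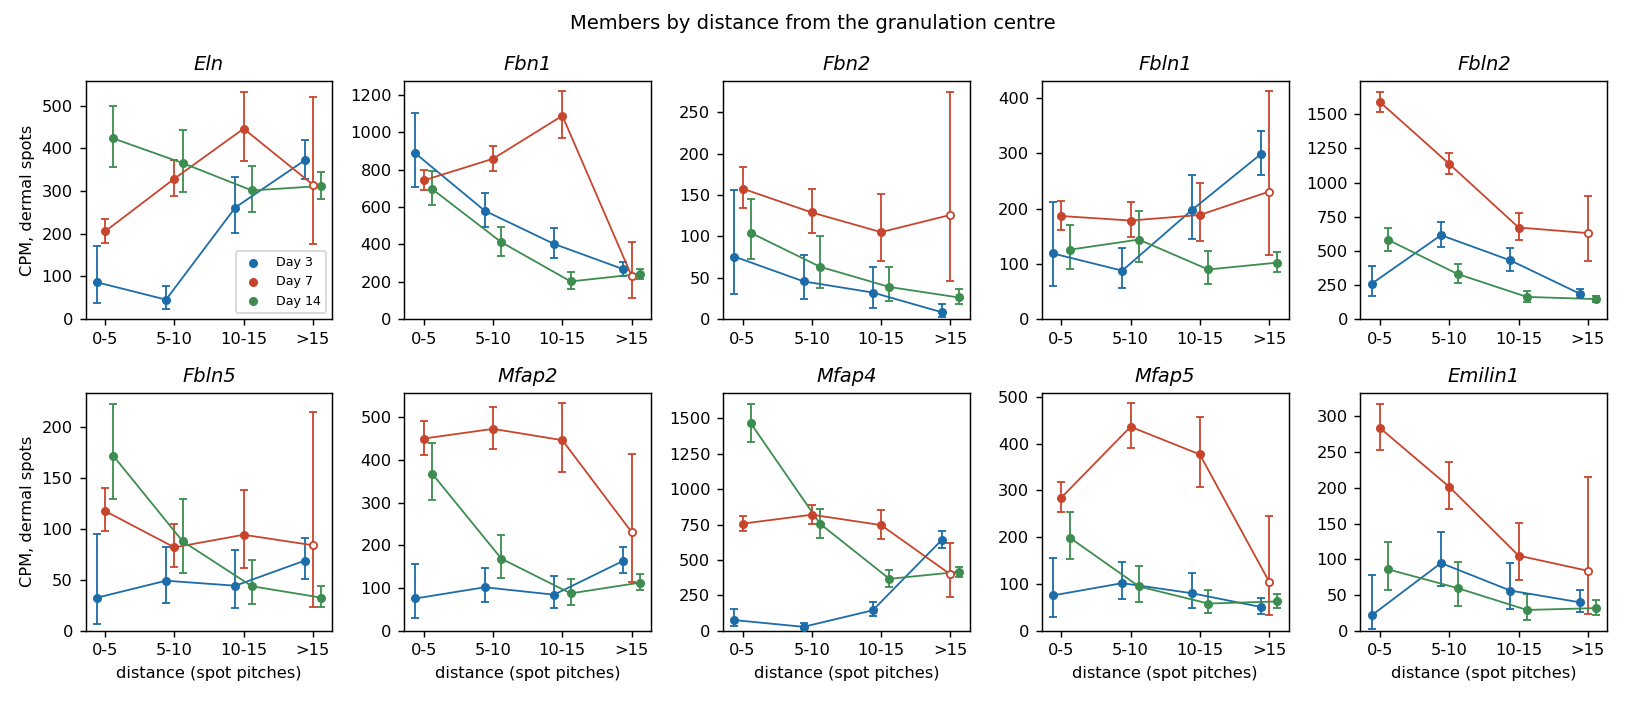
CPM of each member in dermal spots by distance from the granulation centre in spot pitches, for each day, with 95% counting intervals and open points for bands under 20 spots. Mfap4 runs from 75.6 CPM nearest the centre to 644 CPM in the farthest band on Day 3, and from 1465 to 417 CPM on Day 14.

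Depth below the section's upper edge was read over all marked spots in bands of 0 to 2, 2 to 5, 5 to 10 and over 10 pitches. *Mfap5* was lower near the surface on every day. The Day 3 section had 54.8, 67.4, 78.1 and 132 CPM from the shallowest to the deepest band. Day 7 had 165, 199, 372 and 260 CPM. Day 14 had 54.7, 60.2, 114 and 102 CPM. Its log2 ratio of the shallowest over the deepest band was -1.27 (-2.03 to -0.49), -0.66 (-0.998 to -0.328) and -0.89 (-1.44 to -0.35). *Mfap4* was the opposite over all marked spots, with 518, 273, 91.2 and 10.2 CPM in the Day 3 section. On Day 14 its values were 531, 733, 563 and 185 CPM. *Eln* on Day 3 was also lowest in the deepest band, with 267, 261, 195 and 50.9 CPM. The regions led by muscle genes lay lowest, on average 14.1, 14.0 and 18.2 pitches below the top of the section, and *Col1a1* had 25532 CPM in the shallowest and 1741 CPM in the deepest band of Day 3. Within dermal spots alone, between 0 to 2 and 5 to 10 pitches, *Mfap5* had a ratio of -0.90 on Day 3 with an interval that included 0 (-1.86 to 0.14), -1.55 (-1.99 to -1.14) on Day 7 and -1.17 (-1.74 to -0.62) on Day 14. *Mfap4* had a dermal ratio of 2.33 (1.56 to 3.22) on Day 3, -0.36 (-0.58 to -0.14) on Day 7, where all marked spots gave 0.61, and 0.11 (-0.10 to 0.32) on Day 14, where all marked spots gave 1.53. *Eln* on Day 3 had 0.15 (-0.40 to 0.75) in dermal spots and 2.39 over all marked spots. The deepest band differs between these readings as well as the spots. Over all marked spots 6 of 8 counted members had intervals above 0 on Day 3 (47.2% of genes) and 1 below (17.1%), 3 of 10 and 2 of 10 did on Day 7 (14.7% and 8.46%), and 4 of 8 and 1 of 8 on Day 14 (41% and 10.9%). In dermal spots 2 of 6 counted members were above 0 on Day 3 (16.3% of genes) and 1 below (12.6%), 1 of 10 and 6 of 10 on Day 7 (11.1% and 11.4%), and 0 of 10 and 4 of 10 on Day 14 (11.1% and 15.5%). *Fbn1* was lower near the surface of the dermal spots on all 3 days (-1.13, -0.43 and -0.74, with intervals below 0), whereas over all marked spots of Day 3 it was higher in the shallowest than in the deepest band (1.40, 0.78 to 2.09).

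The share of spots with a UMI was compared at equal depth by thinning each spot to 1000 UMIs, which left 426, 525 and 679 spots and left out 238, 24 and 18 shallower ones. *Eln* was found in 16.7%, 31.4% and 30.3% of these spots on Days 3, 7 and 14, against 25.9%, 74.1% and 72.2% of all marked spots without thinning. *Mfap4* was found in 16.2%, 46.5% and 34.6% of thinned spots, *Fbln2* in 16.7%, 49.5% and 18.3% and *Fbn1* in 26.3%, 46.5% and 23.9%. *Fbln1* was the 1 member whose share was not highest on Day 7, with 15.96%, 14.3% and 11.05%. In spots with at least 10% of UMIs from the muscle list, which should hold little dermal matrix RNA, *Eln* was found in 3.60%, 11.4% and 13.8%, *Mfap4* in 3.60%, 27.3% and 14.4% and *Fbln2* in 9.01%, 21.6% and 13.1% after the same thinning. The median depth before thinning was 2373, 7128 and 4948 UMIs over all thinned spots and 1791, 2450 and 2916 UMIs in those muscle spots. For *Fbln2* on Day 14 the shares over all spots (interval 15.4% to 21.4%) and in muscle spots (8.31% to 19.4%) had overlapping intervals.

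Across spots the members went together only loosely. Over the 45 pairs of members, the median Pearson correlation of log UMIs per 10000 was 0.09, 0.20 and 0.14 over the 520, 539 and 689 spots of Days 3, 7 and 14, in spots of at least 500 UMIs that share a library and differ in depth. After thinning to 1000 UMIs these medians were 0.04, 0.03 and 0.03. Before thinning the closest pair was *Eln* with *Mfap4* on Day 3 (0.37) and Day 14 (0.37), and *Mfap2* with *Mfap4* on Day 7 (0.37). After thinning these pairs stood at 0.08, 0.15 and 0.02, and the highest values were 0.21 for *Fbln1* with *Mfap4* on Day 3 and 0.13 for *Fbn1* with *Mfap5* on Day 7. Among 1321 genes with at least 200 UMIs in each section, the gene most like *Mfap4* over the 3 sections was *Col1a2* (mean r 0.54), followed by *Col1a1* (0.53) and *Sparc* (0.48). *Eln* was most like *Col1a2* (0.39), *Col1a1* (0.39) and *Mfap4* (0.36), and *Fbn1* most like *Col1a1* (0.46). *Mfap5* was the 1 member whose closest gene was another member, *Fbn1*, at 0.20, with *Col3a1* and *Sparc* also at 0.20. *Fbn2*, *Fbln5*, *Mfap2*, *Mfap5* and *Emilin1* had fewer than 200 UMIs on Day 3, so they could not be named as a closest gene. For *Fbn2* the closest gene was *Rcn3* (0.21), for *Emilin1* it was *Sparc* (0.21), for *Fbln5* it was *Col3a1* (0.22), for *Mfap2* it was *Col1a1* (0.38), and for *Fbln1* (0.31) and *Fbln2* (0.39) it was *Col1a2*. In sparse counts a weak correlation is no finding, and the values of the members with few UMIs are not comparable with those of *Mfap4* or *Fbn1*.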

How the data were processed

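Visium libraries from 1 skin wound section per day were processed by the authors with Space Ranger 1.3.0 against mm10, per the submitters' processing notes, and the deposited values are raw UMI counts per gene and spot, with no normalization. Spots marked as tissue in the position lists were used. Groups were the days in the labels.

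UMIs were summed over spots and given per 1000000 UMIs (CPM) or per 1000 *Col1a1* UMIs. Sums carry exact Poisson 95% intervals, ratios of CPM exact conditional binomial intervals, shares Clopper-Pearson intervals and ratios of ratios Wald intervals. No test was run between days, regions or bands. A gene was counted as higher or lower at 2-fold with at least 50 UMIs over both groups, and all genes passing that minimum gave the background. The members, lists and comparisons were chosen with earlier results of these data known. Named genes were the 10 members, genes used as denominators, assembly genes past 2-fold, and the 3 genes most like each member. The minimum of 20 spots for the far distance band was set after the values were seen. Between bands a gene was counted where its interval lay beyond 0.

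Regions were k-means clusters (5 centres, 20 starts, seed 0) of 20 principal components of 2000 genes chosen for high variance among those detected in 10 or more spots. Leading genes needed 100 UMIs. Shares used thinning to 1000 UMIs (seed 1). No doublet caller was run, since spots hold several cells. Alternatives were TMM factors (edgeR 4.0.16) and size factors (DESeq2 1.42.0), other denominators, other sets of spots, 4 or 6 regions, Ward clustering, other comparisons and rank correlation. Software was Python 3.11.15, numpy 2.4.6, scipy 1.17.1, pandas 2.3.3, scikit-learn 1.9.0, matplotlib 3.10.9 and R 4.3.3. The intervals for ratios of CPM and for ratios of ratios were tested on simulated counts, and the clustering was not.

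The section depths, given in the results, make intervals widest on Day 3. The study's wound-site annotation and cell-type deconvolution were not used here.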

Additional observations from a re-analysis of the deposited data

Results flagged for a closer look

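In CPM, and against the *Col1a1*-richest other region chosen after the data were seen, 4 members differed between the days in direction. The log2 CPM ratio of the granulation-richest over the *Col1a1*-richest other region was -1.71, -1.10 and 0.38 for *Eln* in the order of the days, with counting intervals beyond 0 on each day. For *Mfap4* it was -3.82, 0.17 and 0.90, for *Fbln1* -1.62, 0.22 and 0.42, and for *Mfap2* -0.89, 0.74 and 0.75. Per *Col1a1* UMI the ratio of *Eln* was below 0 on each day. That of *Mfap4* still changed sign between Day 3 and Day 14. On Day 3, *Fbln1* (-0.44, -0.89 to 0.02) and *Mfap2* (0.29, -0.22 to 0.80) then had intervals that included 0. Against the fibroblast-richest region on Day 3, *Mfap2* had 0.40 (-0.56 to 1.46) and *Fbln1* -0.67 (-1.37 to 0.05) in CPM. *Eln* (-1.45) and *Mfap4* (-1.66) had intervals below 0 there. With 1 section per day these differences were not tested, and the regions of different sections hold different mixtures of tissue.

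The members were also counted in spots not marked as tissue. The 1360, 10653 and 4640 UMIs found there on Days 3, 7 and 14 made up 31.7%, 37.9% and 34.9% of all UMIs of the 10 genes on the slides, whereas 49.0%, 59.2% and 50.6% of all UMIs lay outside. In CPM the members were lower outside than inside, with log2 ratios of -1.05, -1.25 and -0.93. *Mfap5* (0.01, interval -0.36 to 0.38) and *Fbln5* (-0.13, -0.59 to 0.32) on Day 3 and *Emilin1* on Day 14 (-0.06, -0.36 to 0.25) did not differ in CPM beyond counting error.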

How the results depend on the processing

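No paired analysis was possible because each day had 1 section, and no section could be left out. The members counted as 2-fold higher in CPM for Day 7 over Day 3 numbered 6 or 7, and 6 were lower for Day 14 over Day 7, under each alternative run, TMM and DESeq2 factors included. For Day 14 over Day 3, 2 members were higher by the mean over spots, and 1 was lower without muscle-rich spots and in dermal spots. Over the alternatives, the Day 7 over Day 3 log2 CPM ratio of *Fbln1* ran from -0.54 to 0.26, so its sign changed with the processing. The same ratio for *Eln* ran from 0.098 to 0.84. Counts per *Col1a1* UMI depended on the denominator. For Day 7 over Day 3, *Dcn* and the resting fibroblast list gave 9 higher, *Col3a1* gave 1 higher and 1 lower, and the mean over spots gave 1 higher and 3 lower, with *Mfap5* reversed to -1.29 (log2). For Day 14 over Day 7, *Col3a1* gave 3 higher and 0 lower, the resting fibroblast list 5 lower, and spots without muscle-rich ones and dermal spots 1 higher each. For Day 14 over Day 3, *Dcn* gave 6 higher, all slide spots 1, and the mean over spots 1 higher and 4 lower.

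Region counts against the fibroblast-richest region depended on the clustering and on the region compared. On Day 3, 4 regions gave 2 members lower in CPM and 2 higher per *Col1a1* UMI, with *Fbln2* at -0.37 in CPM and *Eln* at 0.24 per *Col1a1* UMI, both reversed. Ward clustering gave 2 higher and 0 lower per *Col1a1* UMI. All other spots gave 3 higher and 3 lower in CPM and 4 higher per *Col1a1* UMI, and the *Col1a1*-richest other region 4 higher and 3 lower in CPM and 4 higher per *Col1a1* UMI. On Day 7, 4 regions gave 0 higher, Ward clustering 1 higher and 1 lower, all other spots 1 higher, and the *Col1a1*-richest other region 0 higher and 1 lower. On Day 14 the last 2 gave 5 and 1 higher in CPM and 0 lower per *Col1a1* UMI, with *Mfap5* reversed to 0.0762 and 0.35.

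By distance, 2 members had intervals below 0 per *Col1a1* UMI on each of Day 3 and Day 14, with *Eln* reversed to -0.73 (log2) on Day 14. On Day 7, all marked spots gave 8 above and 1 below (*Fbn1* reversed to 0.78, *Mfap5* to 0.81) and spots under 10% muscle UMIs 9 and 1 (0.69 and 0.66), both with the far band beyond 15 pitches. With the far band kept at 10 to 15 pitches, a comparison added after the data were seen, all marked spots gave 6 and 1 (0.092 and 0.20). By depth, dermal spots, whose deepest band was 5 to 10 pitches, gave 2 above and 2 below on Day 3, with *Fbn1* reversed to -1.13, then 1 and 6 on Day 7, with *Fbln2* reversed to -0.62, *Mfap2* to -0.44 and *Mfap4* to -0.36, and 0 and 4 on Day 14, with *Mfap2* at -0.24. All marked spots with that band, also added later, gave 2 below on Day 3 (*Fbn1* at -0.46), 1 above and 6 below on Day 7 (*Fbln2* at -0.41, *Mfap2* at -0.40, *Mfap4* at -0.25) and 0 above and 5 below on Day 14 (*Eln* at -0.20, *Fbln2* at -0.15, *Mfap4* at -0.083), so the sign of these values changed with the deep band alone. Pairs with r of at least 0.2 numbered 12 on Day 3 by Spearman, and 1, 0 and 0 after thinning. Thinning leaves lower counts per spot, and the cause of these differences was not tested. Day 3 depth limits the members with few UMIs, such as *Fbn2* with 38.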
